A study of Rattus norvegicus with 38 samples.

Results

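The methylation change between postnatal day 2 (P2) and P10 was followed in the 4 LBN pups of cohort 2, named LBN2, LBN4, LBN9 and LBN11. Their 8 samples, chosen by the cohort, group and pup names in the labels, were part of the 38 samples of 19 pups that made up the series. Each sample held DNA from a buccal swab of both cheeks of a Sprague-Dawley rat pup, read by reduced representation bisulfite sequencing (RRBS). LBN stands for limited bedding and nesting: dam and pups lived during the week between the swabs in a cage with a mesh floor, sparse bedding and part of a paper towel as nest material. Control pups lived with their dams in cages with standard bedding. The P2 swab preceded the random assignment to a cage, so a P2 value of an LBN pup precedes the experience. Pups of several litters were mixed before dams received them. Sex, dam and cage are not labelled by pup. If some LBN pups were raised by the same dam they were not independent, and the p-values are then smaller than they should be. The 4 control pups of cohort 2 (C1, C5, C8 and C11) and the 5 LBN pups of cohort 1 served for comparison.

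DNA methylation is the addition of a methyl group to cytosine, in mammals mostly where a G follows the C (a CpG). Methylation of a promoter usually goes with a silent gene, whereas methylation inside genes has no such simple reading. Methylation patterns differ between cell types, and a cheek swab holds epithelial cells together with white blood cells. A changed mix of cells and a change within cells therefore cannot be told apart in any result given here. RRBS cuts DNA with Msp I at CCGG, so it reads CpGs close to that motif.

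All 3417 differentially methylated regions (DMRs) of the deposited table were used, of which 2510 were single CpG positions. A value is the percentage of methylated reads in a DMR. Read numbers do not come with these values, so depth is unknown and each value stands without an interval. The DMRs had been picked because their methylation moved with age in pups of this series, so the shares of changed DMRs describe that selection and not the genome. Gene names came from the study's annotation, and other DMRs are given by position on rn6. In all, 458 DMRs in 426 genes had a name. The study had annotated DMRs with large weights on components that separated the ages in controls or the LBN from the control pups. Both kinds of difference were therefore favoured among DMRs with a gene, and the counts of the gene lists are a description of that selection. Cell type markers could not be checked as expression: methylation at a marker gene does not measure the share of a cell type.

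Promoter DMRs were few: 28 of the 458 DMRs with a gene were annotated to a promoter, and 4 of these passed the test of change. Calml3, Slc44a2 and Tspo were lower at P10 (10.7% of the 28, against 15.3% of all DMRs) and Mfap2 was higher (3.57%, against 1.29%). The 4 were singled out after their values were seen. The 250 bases before the transcription start of these genes are shown as RefSeq gives them on build GRCr8, on the + strand, with every CG in capitals, because methylation occurs at CpGs. Which of these CGs were read is not known here. Tspo is named only. These coordinates are on another build than the DMRs, so the DMRs were not placed in the windows.
Calml3, chr17:71331276-71331525: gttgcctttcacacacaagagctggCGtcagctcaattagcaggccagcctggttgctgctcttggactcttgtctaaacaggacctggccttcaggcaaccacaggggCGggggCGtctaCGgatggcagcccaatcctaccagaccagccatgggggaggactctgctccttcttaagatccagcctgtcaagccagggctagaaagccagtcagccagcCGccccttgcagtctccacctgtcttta
Slc44a2, chr8:28164122-28164371: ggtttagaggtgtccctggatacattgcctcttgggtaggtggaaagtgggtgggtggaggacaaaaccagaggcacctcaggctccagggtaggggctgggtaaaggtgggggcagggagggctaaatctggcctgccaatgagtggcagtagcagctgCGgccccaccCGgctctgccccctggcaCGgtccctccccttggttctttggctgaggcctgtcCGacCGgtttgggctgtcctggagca
Mfap2, chr5:158597478-158597727: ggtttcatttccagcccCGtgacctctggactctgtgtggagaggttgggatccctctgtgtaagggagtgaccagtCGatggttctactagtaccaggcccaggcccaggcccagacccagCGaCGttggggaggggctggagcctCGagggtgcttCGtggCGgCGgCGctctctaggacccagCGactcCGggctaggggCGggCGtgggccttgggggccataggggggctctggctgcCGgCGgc
The windows of Calml3 and Slc44a2 each held 5 CGs, and that of Mfap2 held 15, against a median of 5 over 33469 windows of 250 bases. The Msp I motif CCGG, which reads the same on both strands, was found 2 times in the windows of Slc44a2 and Mfap2 and in 46.2% of all windows. It was not found in the 250 bases before Calml3.

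Methylation fell in each of the 4 LBN pups. The mean level over the 3417 DMRs was 50.6% at P2 and 46.0% at P10 in LBN2, 48.8% and 43.6% in LBN4, 46.9% and 39.4% in LBN9, and 49.5% and 39.7% in LBN11. Every P10 mean was below every P2 mean. The mean change was −6.79 ± 2.34 percentage points (SD, n = 4), with LBN2 the smallest at −4.61 and LBN11 the largest at −9.77. The exact sign-flip test gave p = 0.125 (two-sided), the smallest that 4 pups allow.

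The pups differed in how their changes were spread over the DMRs. LBN4 had 780 DMRs that were at least 10 points higher at P10, against 253 to 351 in the other pups. It also had 1290 DMRs at least 10 points lower, a count between those of LBN2 (1027) and LBN11 (1503). Its mean change thus combined many rises with many falls, as the plot of each pup's distribution shows. Across DMRs, which are not independent replicates, the changes of any 2 pups had a Pearson correlation of 0.331 (LBN4 and LBN11) to 0.618 (LBN2 and LBN4), given as a description. The median SD between pups was 6.48 points at P2, 8.14 at P10 and 9.57 for the change.

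**Figure D1:**
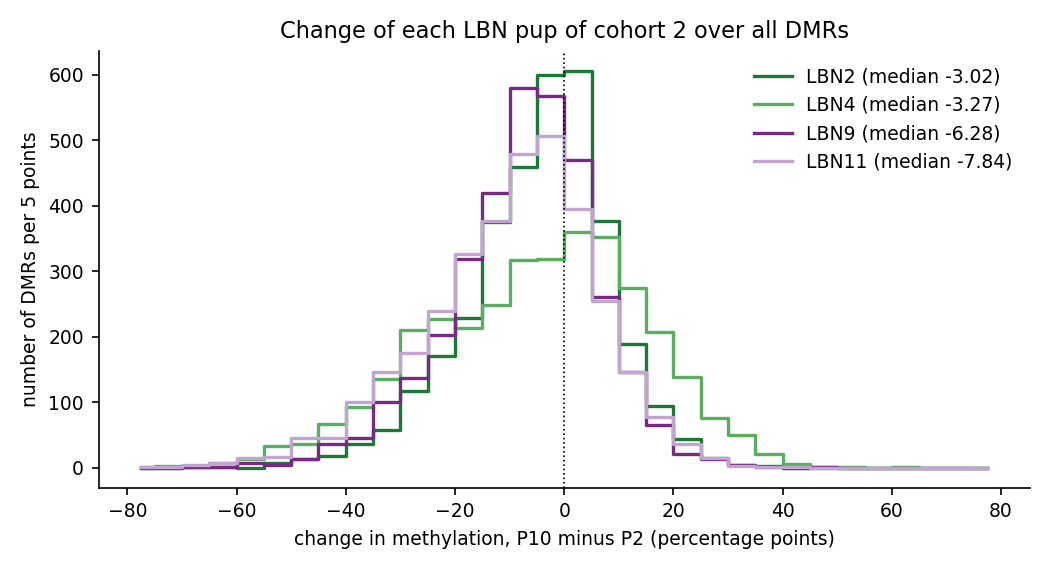
Number of DMRs (vertical axis, per bin of 5 percentage points) by the change from P2 to P10 (horizontal axis, percentage points), with 1 line for each LBN pup of cohort 2. All 4 lines reach further below 0 than above it, the medians lie between −7.84 and −3.02, and LBN4 has the broadest line.

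Of the 3417 DMRs, 524 (15.3%) were lower at P10 and 44 (1.29%) were higher, 568 (16.6%) in all. The test was limma on log2((percent + 1)/(100 − percent + 1)), a log-odds scale, with the pup as a block and an adjusted p of 0.05. DMRs that fell had a median change of −24.3 points, from a median level of 57.5% at P2 to 29.0% at P10. DMRs that rose had a median change of 17.5 points, from 24.2% to 49.0%. All 4 pups moved in the called direction at 522 of the 524 and at all 44, against 1131 (33.1%) of all DMRs that were lower and 257 (7.52%) that were higher in 4 of 4 pups. All P10 values lay below all P2 values at 420 of the 524, against 636 (18.6%) of all DMRs, and above them at 41 of the 44, against 149 (4.36%). The call was made on the changes of these same 4 pups. Both kinds of agreement among the called DMRs therefore follow largely from the call and add no support to it.

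The count depended on each pup: 157 DMRs passed without LBN2, 187 without LBN9 and 234 without LBN4, each from 3 pups, and 444 without LBN11. In the same order, 155, 183, 225 and 404 of these were lower at P10, and 2, 4, 9 and 40 were higher. The median change over all DMRs was −0.41 on the log-odds scale. With each pup's change centred on its own median, 210 DMRs were called lower and 97 higher, so 31.6% of the calls were higher in place of 7.75%.

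Falls were found along the genome and became more frequent with the level. To group the DMRs by a level that these pups did not set, the P2 mean of the 11 pups of cohort 1 was used. Of 232 DMRs below 20%, 9 fell and 18 rose. Between 20% and 40%, 54 of 739 fell and 9 rose. At the upper end, 64 of 241 DMRs between 80% and 100% fell and 3 rose. The mean change was 1.90 ± 1.09 points (SD, n = 4 pups) below 20%, where all 4 pups rose, −3.40 ± 1.68 between 20% and 40%, −7.65 ± 1.22 between 40% and 60%, −9.13 ± 4.01 between 60% and 80%, and −11.4 ± 5.26 above 80%, where LBN11 fell by 18.8 points and the other pups by 6.90 to 11.1. In control pups of cohort 2 the mean change went from 2.83 ± 1.42 in the lowest to −11.3 ± 6.07 in the highest group. A low level leaves little room to fall and a high level little room to rise. Among DMRs picked because they moved with age, part of this gradient is therefore set in advance.

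**Figure D2:**
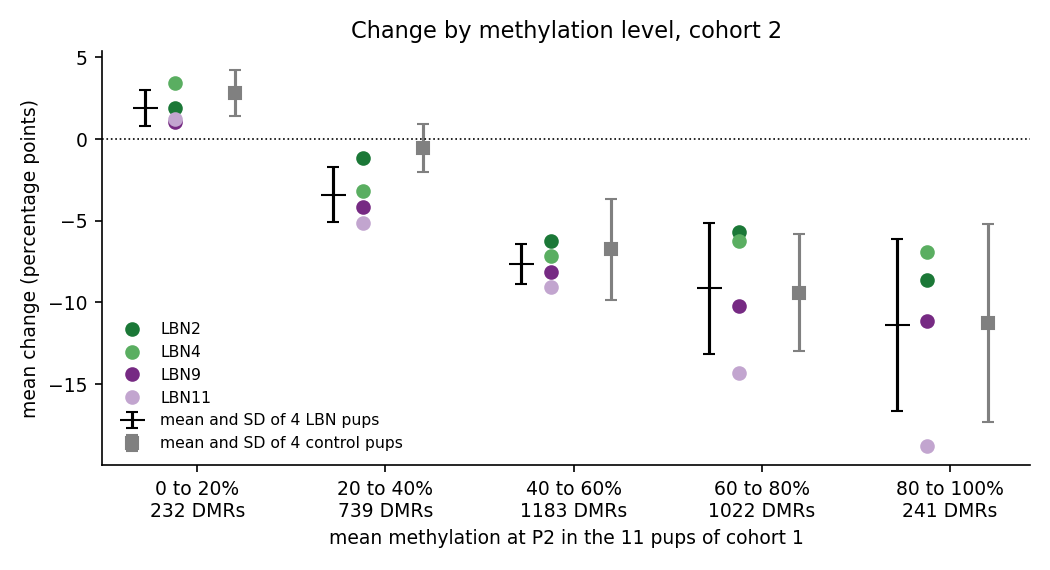
Mean change from P2 to P10 (vertical axis, percentage points) for DMRs grouped by their mean level at P2 in cohort 1 (horizontal axis), with coloured points for the 4 LBN pups of cohort 2, bars for their mean and SD, and grey squares and bars for the mean and SD of the 4 control pups. The LBN points lie above 0 only in the lowest group and spread most in the highest, where LBN11 is lowest.

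On autosomes, the share of DMRs that passed the test ran from 12.6% (chromosome 11) to 21.6% (chromosome 15). DMRs with a gene started at a lower level (mean 31.4% at P2) than all DMRs (49.0%). Of the 458, 67 (14.6%) fell and 25 (5.46%) rose, against 15.3% and 1.29% of all DMRs. By place, 38 of 202 intronic DMRs fell (18.8%) and 7 rose (3.47%), and 20 of 113 intergenic DMRs fell (17.7%) and 4 rose (3.54%). In exons 5 of 93 fell (5.38%) and 9 rose (9.68%), and at transcription ends 1 of 22 fell and 4 rose.

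The 8 largest falls on the log-odds scale included 3 DMRs with a gene. Llgl1 encodes a scaffold protein of epithelial polarity, and its exonic DMR (chr10:46948753-46948759) read 77.1%, 74.1%, 65.0% and 75.0% at P2 in LBN2, LBN4, LBN9 and LBN11, and 14.4%, 13.8%, 16.7% and 10.3% at P10. No pup's P10 value came near any P2 value, and the log-odds change was −3.98 ± 0.35 (SE, adjusted p = 0.00643). The adjusted p stayed between 0.00671 and 0.0262 with each pup left out. Intergenic DMRs near Mical3, an enzyme that acts on actin, and near Mos, a kinase of oocyte meiosis, fell as far. At Mical3 (chr4:153611188-153611189) the levels were 88.0%, 94.1%, 86.5% and 92.0% at P2 and 44.3%, 22.4%, 40.8% and 24.2% at P10. At Mos (chr5:16734196-16734197) they went from 72.9%, 86.5%, 60% and 74.4% to 25.6%, 9.09%, 15.6% and 7.32%. The P2 and P10 values overlapped at neither, and the adjusted p was 0.00651 for Mical3 and 0.00708 for Mos.

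The other 5 of these falls had no gene in the annotation. The largest, chr14:17266911-17266912, went from 97.7%, 89.5%, 100% and 94.4% to 76.7%, 52.6%, 40.9% and 46.7%, a log-odds change of −4.32 ± 0.66 (SE, adjusted p = 0.00925). LBN2 fell least there. The DMRs at chr2:20090777-20090778, chr15:38752839-38752843, chr1:221627200-221627201 and chr4:133389907-133389923 started at group means of 86.6% to 92.1% and ended at 38.3% to 40.7%. In control pups of cohort 2, all 8 DMRs also passed the test as lower, at adjusted p of 0.00325 to 0.0172.

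Rises were smaller, and 4 of the 8 largest were at genes. Bcl3, an NF-κB partner of the IκB family, rose at an intronic DMR (chr1:80731734-80731753) from 23.7%, 21.7%, 20.1% and 24.8% to 52.7%, 57.5%, 51.5% and 54.1%. The 4 pups stayed within a few points of each other at either age, and the log-odds change was 1.96 ± 0.30 (SE, adjusted p = 0.00925). The AP-1 subunit genes Jund and Fosb were also among them. Near Jund (chr16:20490182-20490183) the level went from 18.6%, 19.6%, 17.6% and 18.0% to 40.8%, 49.1%, 44.6% and 38.0%, adjusted p = 0.0128. In an exon of Fosb (chr1:80216938-80216939) it went from 9.09%, 5.33%, 16.7% and 11.1% to 35.0%, 48.4%, 19.1% and 27.3%, adjusted p = 0.0436. LBN4 rose most and LBN9 least at Fosb, and the adjusted p reached 0.129 with a pup left out. Smpd5, a sphingomyelinase gene, rose at its end (chr7:117354484-117354538) from a mean of 13.4% ± 4.31 to 33.7% ± 9.21 (SD, n = 4).

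Among the 4 rises without a gene, chr10:106242332-106242333 was nearly unmethylated at P2. It read 2.26%, 0.962%, 1.99% and 0.855%, and at P10 10.0%, 13.9%, 10.5% and 10.3%. The log-odds change of 2.45 ± 0.34 (SE, adjusted p = 0.00777) was the largest rise of all, although it was 9.66 points in size. The DMRs at chr17:9661618-9661619, chr7:126159537-126159538 and chr2:140974539-140974540 began at means of 73.8% to 85.6% and ended at 89.9% to 96.0%. In control pups of cohort 2, Bcl3 (adjusted p = 0.0181) and chr17:9661618-9661619 (adjusted p = 0.00885) also passed as higher. The rest of these largest rises had positive mean changes in controls but did not pass (adjusted p of 0.0537 to 0.548). Near Jund controls changed by 6.85 ± 9.89 points (SD, n = 4). They were at 27.7% to 34.8% there at P2, above every LBN pup.

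At the promoters shown above, the Calml3 DMR (chr17:70071395-70071396 on rn6) went from 51.7%, 57.7%, 35.3% and 34.0% to 26.7%, 10.4%, 19.1% and 10.5%, a log-odds change of −2.04 ± 0.42 (SE, adjusted p = 0.0188). In controls it changed by −30.6 ± 21.0 points (SD, n = 4, adjusted p = 0.0310). Calml3 encodes a calmodulin-like protein of epithelial cells. Slc44a2, a choline transporter-like gene, started at 15.5%, 14.7%, 15.3% and 14.4% (chr8:22368751-22368752) and ended at 7.55%, 2.47%, 5.34% and 4.14%, adjusted p = 0.0175. Controls changed there by 1.59 ± 2.41 points (SD, n = 4, adjusted p = 0.704), and the difference between the groups had an adjusted p of 0.0857. At P2, before the assignment, controls were at 4.19% to 12.5%, below every LBN pup. At P10 they were at 5.19% to 12.5%, and the groups overlapped. Tspo, a gene of the outer mitochondrial membrane, fell from a mean of 12.8% ± 6.89 to 2.43% ± 0.929 (SD, n = 4) at chr7:124459651-124459652, adjusted p = 0.0220. Mfap2, a gene of extracellular microfibrils, rose from 12.7%, 12.4%, 11.1% and 16.6% to 28.9%, 37.7%, 24.1% and 26.7% at chr5:159534225-159534289, adjusted p = 0.0282. Controls passed in the same direction at both, with changes of −11.9 ± 8.16 points at Tspo (adjusted p = 0.0142) and 24.8 ± 6.65 at Mfap2 (SD, n = 4, adjusted p = 0.0126).

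Of the 9 gene lists examined, that of epithelial genes had the lowest median change. Of 14 DMRs in 14 genes, 7 fell (50.0%, against 15.3% of all DMRs) and none rose, 10 were lower at P10 in all 4 pups (against 33.1% of all DMRs), and the median log-odds change was −1.44, against −0.41 over all DMRs. The mean level of the list went from 34.8% to 20.4% in LBN2, 29.7% to 13.4% in LBN4, 25.3% to 12.99% in LBN9 and 27.9% to 13.2% in LBN11. The pups' mean changes thus ran only from −16.3 to −12.3 points. Besides Llgl1 and Calml3, the fall was seen at genes of cell adhesion. Dsc3, a cadherin of desmosomes (intron, chr18:11788807-11788827), went from 61.6%, 55.3%, 50.0% and 48.0% to 34.8%, 18.0%, 22.4% and 22.7%, adjusted p = 0.0123. Itga6, the laminin-binding integrin of hemidesmosomes, fell from 19.2% ± 7.49 to 8.29% ± 5.77, and Sdc1, the proteoglycan syndecan, from 18.6% ± 8.02 to 5.76% ± 1.29 (SD, n = 4 each). The keratin gene Krt42 fell from 41.3% ± 7.13 to 21.1% ± 10.2, and Aqp3, a channel for water and glycerol, from 17.1% ± 8.21 to 4.53% ± 1.88. The keratin gene Krt75 and Epcam, a gene of epithelial adhesion, did not pass, with mean changes of −0.50 and 0.86 points.

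The count for epithelial genes was 2 without LBN2, 3 without LBN4, 4 without LBN9 and 8 without LBN11, and 3 after centring on each pup's median. In control pups of cohort 2, 6 of the 14 DMRs fell and none rose, with a median log-odds change of −1.40. In cohort 1 LBN pups, 2 fell and 1 rose, with a median of 0.05.

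**Figure D3:**
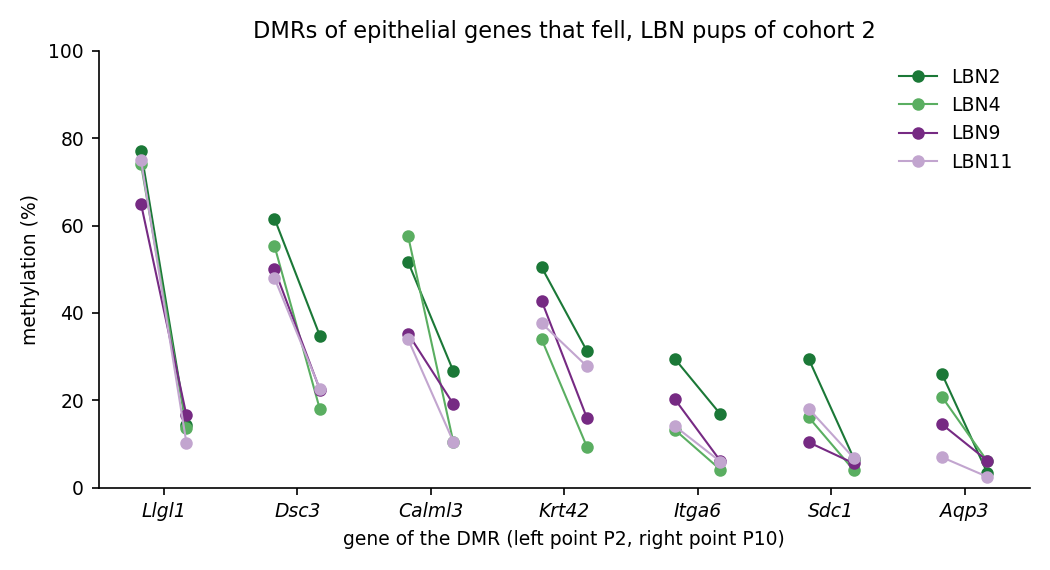
Methylation (vertical axis, %) at the 7 DMRs of epithelial genes that fell, with the P2 value on the left and the P10 value on the right of each gene and 1 line per LBN pup of cohort 2. Every line slopes down, and at Llgl1 the P2 values of 65.0% to 77.1% are far above the P10 values of 10.3% to 16.7%.

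Of 20 DMRs in 19 leukocyte genes, none passed the test in either direction, against 16.6% of all DMRs, and the median log-odds change was −0.04. The 3 with the smallest p were near Sema4d, a semaphorin of lymphocytes (29.9% ± 6.61 to 18.99% ± 3.52, adjusted p = 0.127), at Irf8, a factor of myeloid and B cells (15.6% ± 3.04 to 23.9% ± 1.84, adjusted p = 0.128), and at the tetraspanin gene Cd37 (16.5% ± 2.53 to 10.5% ± 2.66, adjusted p = 0.186), each as SD with n = 4. The mean change over the list was −0.84 points in LBN2, 5.55 in LBN4, −8.00 in LBN9 and −1.10 in LBN11. In control pups the same DMRs changed by −8.92, −6.20, −11.6 and −14.8 points in C1, C5, C8 and C11, and 8 fell and 2 rose. LBN9 was the only LBN pup within the control range. The groups were apart at P2 already, before the assignment to a cage. The mean level of the list was then 34.2% in LBN and 40.6% in control pups. At P10 it was 33.1% and 30.2%. Of all DMRs between 20% and 40% by level in cohort 1, 7.31% fell and 1.22% rose in the LBN pups. None of the 20 differed between LBN and control pups past an adjusted p. The weights by which DMRs were annotated favour such differences, so the 2 groups' values are given side by side only. What these marker genes have to do with the other results was not tested.

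Of 36 DMRs in 27 genes of developmental transcription factors outside the homeobox family, 6 rose (16.7%, against 1.29% of all DMRs), 1 fell (2.78%, against 15.3%) and 29 did not pass. In control pups 1 rose and 2 fell. The list started low, at a mean of 23.2% at P2. Of all DMRs with a gene, 5.46% rose and 14.6% fell. By level in cohort 1, 7.76% of DMRs below 20% rose and 3.88% fell. Between 20% and 40%, 1.22% rose and 7.31% fell. The mean changes of the developmental list were 5.06 points in LBN2, 8.64 in LBN4, 2.30 in LBN9 and 3.46 in LBN11. Besides Jund and Fosb, a rise was seen at Gata3, a zinc finger factor of epithelial and lymphoid development (exon, chr17:72430892-72430893), from 2.76%, 5.45%, 6.06% and 4.44% to 9.65%, 18.5%, 12.7% and 18.3%, adjusted p = 0.0166. Tfap2c, a factor of the AP-2 family, rose from 9.77% ± 2.30 to 24.1% ± 9.79 (SD, n = 4). The zinc finger gene Casz1 rose at 2 neighbouring DMRs, by 15.5 ± 11.2 and 14.4 ± 7.51 points (SD, n = 4). Hlf, a leucine zipper factor, went the other way in an exon, from 64.4%, 48.3%, 48.5% and 61.3% to 34.6%, 22.3%, 18.6% and 24.2%, adjusted p = 0.00954. The 6 rises became 0 without LBN2, 2 without LBN4, 2 without LBN9 and 5 without LBN11, and 10 after centring. Over all DMRs the 44 rises became 2, 9, 4, 40 and 97 in these fits.

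Homeobox factor genes, which pattern the embryo, gave no call among 23 DMRs in 19 genes, against 16.6% of all DMRs, with a median log-odds change of 0.03. The smallest p was at an intergenic DMR of Irx2, which went from 23.9%, 24.7%, 28.03% and 25.7% to 42.4%, 44.9%, 41.8% and 38.0%, adjusted p = 0.0519. Its P2 and P10 values did not overlap. Dlx1 had an adjusted p of 0.0971 for a change of 14.4 ± 8.97 points, and Nkx2-3 of 0.146 for −9.72 ± 6.48 (SD, n = 4). After centring, 2 of the 23 were called higher. The list started low, at a mean of 19.97% at P2, and DMRs of low level passed less often than all DMRs. By level in cohort 1, 3.88% of DMRs below 20% fell and 7.76% rose. Between 20% and 40%, 7.31% fell and 1.22% rose. In control pups of cohort 2 none of the 23 passed.

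Of 12 DMRs in 10 genes of chromatin proteins, 4 rose (33.3%, against 1.29% of all DMRs and 5.46% of DMRs with a gene). None fell (against 15.3% and 14.6%). The list started at a mean of 24.2% at P2. In control pups 2 rose and none fell. Of the 4, 2 were the Casz1 DMRs, since that gene stood in both lists. Dnmt3a, the methyltransferase that sets methylation at new sites, rose in an intron (chr6:28324002-28324027) from 11.4%, 9.07%, 7.14% and 10.4% to 22.9%, 36.5%, 18.2% and 24.0%, a log-odds change of 1.58 ± 0.34 (SE, adjusted p = 0.0211). LBN4 rose by 27.4 points and the others by 11.04 to 13.6. The 4 rises became 0 without LBN2, 1 without LBN4, 0 without LBN9 and 2 without LBN11, and 6 after centring. The 44 rises over all DMRs became 2, 9, 4, 40 and 97 in these fits.

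**Figure D4:**
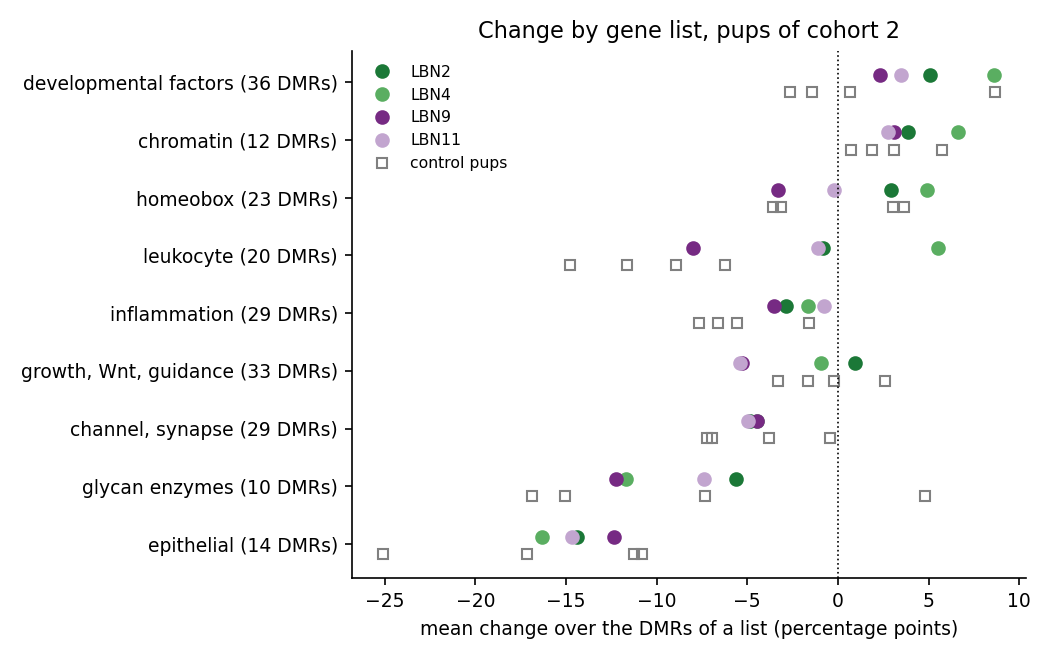
Mean change from P2 to P10 over the DMRs of each gene list (horizontal axis, percentage points), with filled circles for the 4 LBN pups and open squares for the 4 control pups of cohort 2. Epithelial genes lie between −16.3 and −12.3 points in the LBN pups and developmental factors between 2.30 and 8.64, whereas for leukocyte genes the LBN pups run from −8.00 to 5.55 and the controls from −14.8 to −6.20. The mean level of the leukocyte list at P2 was 34.2% in LBN and 40.6% in control pups.

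Channel and synapse genes gave 4 falls among 29 DMRs, or 13.8%, near the 15.3% of all DMRs, and 1 rise (3.45%, against 1.29%). The potassium channel gene Kcnk5 fell in an exon (chr15:4595203-4595204) from 82.3%, 77.6%, 75.0% and 69.2% to 33.3%, 17.3%, 28.6% and 21.2%, a log-odds change of −3.22 ± 0.33 (SE, adjusted p = 0.00643). The calcium-activated potassium channel gene Kcnn4 fell near the gene from 49.1%, 48.1%, 38.4% and 45.6% to 16.4%, 3.16%, 16.3% and 10.6%, adjusted p = 0.0115. P2 and P10 values were apart at both genes. Kcnip1, a channel-interacting calcium sensor, fell by 28.3 ± 14.1 points (SD, n = 4). The 4 falls became 2 without LBN2 or LBN4, and no rise passed with any pup left out. In control pups of cohort 2, 4 DMRs of this list fell and 2 rose.

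Of 29 DMRs of inflammation genes, 4 fell (13.8%, near the 15.3% of all DMRs), 2 rose (6.90%, against 1.29%) and 23 did not pass. C1s, a protease of the complement cascade, fell in an exon (chr4:157149884-157149903) from 25.5%, 27.8%, 32.8% and 25.6% to 5.52%, 7.06%, 8.62% and 11.4%, adjusted p = 0.00954. Traf1, an adaptor of TNF receptors, fell near the gene (chr3:14024284-14024285) from 49.4%, 34.1%, 30.7% and 31.0% to 7.29%, 9.50%, 11.7% and 12.3%, adjusted p = 0.0125. The groups of values overlapped at neither. Il20rb, a cytokine receptor subunit, fell by 25.1 ± 6.95 points, and Dapk1, a kinase of cell death, by 30.0 ± 14.5 (SD, n = 4). Rises were seen at Bcl3 and at Pmaip1, a gene that promotes apoptosis (14.6 ± 6.97 points, SD, n = 4). The 4 falls became 1 without LBN2 and the 2 rises became 1 without LBN2, LBN4 or LBN9. In control pups of cohort 2, 9 DMRs of this list fell and 3 rose.

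Among growth factor, Wnt and guidance genes, 2 of 33 DMRs fell and 2 rose, 6.06% each way, against 15.3% lower and 1.29% higher of all DMRs. The receptor tyrosine kinase gene Kit fell in an intron (chr14:35141718-35141719) from 76.3%, 75.0%, 70.0% and 69.1% to 56.0%, 56.2%, 25.8% and 38.5%, adjusted p = 0.0188. The ephrin ligand gene Efna5 fell by 21.7 ± 12.7 points (SD, n = 4). The neurotrophic factor gene Gdnf rose in an exon (chr2:56892567-56892568) from 18.8%, 7.32%, 10.9% and 9.68% to 38.0%, 22.5%, 21.5% and 23.4%, adjusted p = 0.0214. Nrp2, a receptor of semaphorins, rose by 17.2 ± 7.46 points in an intron, adjusted p = 0.0493. There all 4 control pups of cohort 2 fell, with a mean change of −13.6 ± 6.10 points (SD, n = 4, adjusted p = 0.207). The difference in change between LBN and control pups had an adjusted p of 0.0857. All 5 LBN pups of cohort 1 also fell, with changes of −56.4 to −8.60 points (adjusted p = 0.0351). At P2, before the assignment, LBN pups of cohort 2 were at 5.68% to 33.3%, below every control pup (37.5% to 54.2%). At P10 the 2 groups overlapped. Without LBN2 none of the 4 called DMRs of this list passed, and without LBN9 none did either. In control pups of cohort 2, 3 DMRs of this list fell and 2 rose. Of 10 DMRs of glycan enzyme genes, 3 fell (30.0%, against 15.3% of all DMRs) and none rose: the mannosidase gene Man1c1 by 23.6 ± 6.99 points, the galactosyltransferase gene B4galt4 by 24.1 ± 7.35 and the xylosyltransferase gene Xylt2 by 15.1 ± 5.58 (SD, n = 4). No glycan enzyme DMR passed without LBN2, without LBN4 or without LBN9. Over all DMRs the 524 falls became 155, 225 and 183 in these fits. In control pups of cohort 2, 3 glycan enzyme DMRs fell and none rose.

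The next question was whether the change differed between LBN and control pups of the same cohort, which were swabbed at the same ages. Over all DMRs it did not differ beyond the spread: control pups changed by −5.88 ± 2.23 points (SD, n = 4), and the difference of −0.914 points had p = 0.6 (exact permutation test, two-sided, smallest possible 0.0286). Control pups taken alone gave 661 calls (19.3%), of which 578 were lower and 83 higher. Of the 524 DMRs that fell in LBN pups, 477 had a negative change in control pups and 148 were also called lower there, which was 28.2% of the LBN and 25.6% of the control calls. Of the 44 that rose, 41 had a positive change in control pups and 13 were called higher there.

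By DMR, 2 of 3417 (0.0585%) differed between LBN and control pups in the limma test of the change, and 809 (23.7%) had an unadjusted p under 0.05, 478 of them with a change above that of controls and 331 below. Neither of the 2 had a gene in the annotation. At chr15:40479196-40479197 the LBN pups went from 45.0%, 56.2%, 41.2% and 38.5% to 70.6%, 86.7%, 61.5% and 45.5%. The control pups C1, C5, C8 and C11 went from 81.2%, 93.7%, 72.7% and 85.7% to 31.2%, 66.7%, 35.3% and 30.0%. All LBN pups rose and all controls fell, and the difference of 4.30 ± 0.56 (SE, log-odds scale) had an adjusted p of 0.0186. At chr14:9158709-9158710 the LBN pups went from 54.9%, 53.3%, 46.7% and 40.0% to 70.4%, 72.4%, 77.6% and 60.4%. The control pups went from 78.9%, 86.4%, 83.3% and 85.0% to 34.8%, 51.2%, 57.4% and 69.6%, and the difference of 3.39 ± 0.52 (SE) had an adjusted p of 0.0470. At both DMRs the groups did not overlap at P2, before the pups were assigned to a cage, and they overlapped at P10.

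The next in order of p were an intron of Snx29, a sorting nexin gene, and chr1:86854276-86854277, both at an adjusted p of 0.0578. The count of 2 was 0 without LBN2, LBN4, LBN9 or C1, 1 without LBN11 or C8 and 23 without C5, and it was 78 on the scale of percentage points.

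**Figure D5:**
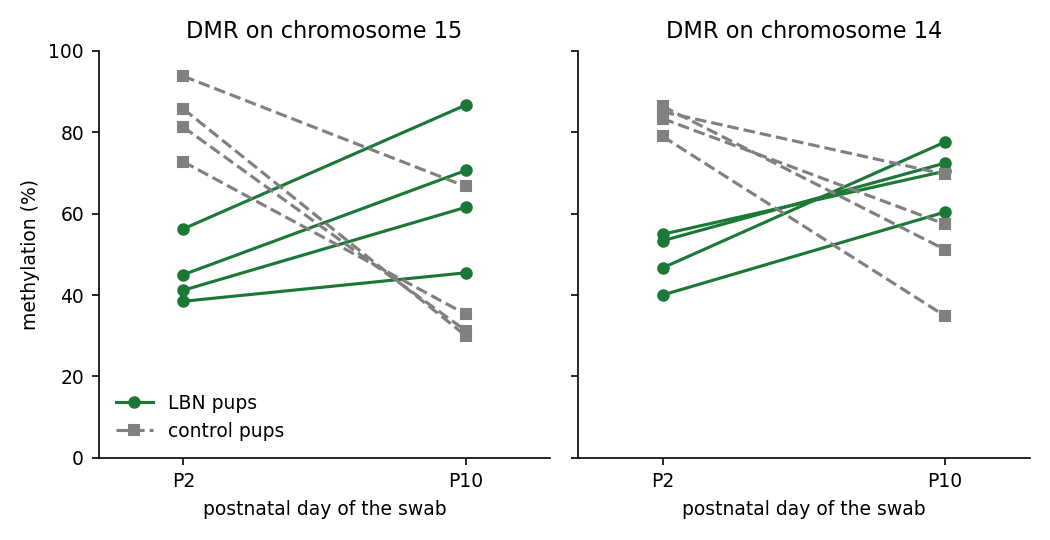
Methylation (vertical axis, %) at P2 and P10 (horizontal axis) at the 2 DMRs whose change differed between the groups of cohort 2, with a green line for each LBN pup and a dashed grey line for each control pup. LBN lines rise and control lines fall in both panels, and at P2 the LBN values of 38.5% to 56.2% lie below the control values of 72.7% to 93.7%.

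The LBN pups of cohort 1 had the same kind of cage at other dates, and cohort and date cannot be told apart. Their mean level changed by 1.03 ± 1.73 points (SD, n = 5), and the difference of −7.82 points from cohort 2 had p = 0.0159 (exact permutation test, two-sided, the smallest that 4 against 5 pups allow). At P2 the mean level already differed by −2.74 points, cohort 2 minus cohort 1 (p = 0.0476, exact permutation test). At P10 the difference was −10.6 points (p = 0.0159, exact permutation test). Control pups of cohort 2 also fell, as given above.

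By DMR, 799 (23.4%) changed differently in the LBN pups of the 2 cohorts, 711 of them more downward in cohort 2 and 88 more upward. The count was 434 after centring, 215 to 219 in the 2 directions, and 242 to 1463 with a pup left out. LBN pups of cohort 1 taken alone gave 563 calls (16.5% of all DMRs), 315 lower and 248 higher, with a median log-odds change of 0.21. Of the 524 DMRs that fell in cohort 2, 185 had a negative change in LBN pups of cohort 1, 25 were called lower there and 16 higher. Of the 44 that rose, 31 had a positive change, 8 were called higher and 2 lower. At Llgl1 the cohort 1 pups changed by −2.93 ± 13.2 points (SD, n = 5), against −59.0 ± 7.33 in cohort 2 (SD, n = 4), and the difference of −3.82 ± 0.57 (SE, log-odds scale) had an adjusted p of 0.00741. At chr8:126431995-126432028 the cohort 2 pups went from 79.1%, 63.7%, 60.4% and 76.9% to 26.5%, 13.4%, 15.5% and 11.8%, whereas cohort 1 pups changed by 3.25 ± 6.50 points (adjusted p of the difference 0.00395). Dapk1 went in opposite directions in the LBN pups of the 2 cohorts. It went from 68.4%, 53.5%, 22.9% and 51.5% to 29.4%, 8.45%, 8.89% and 29.6% in those of cohort 2. In those of cohort 1 it changed by 27.7 ± 15.8 points (adjusted p of the difference 0.00828). At chr12:42929183-42929184 the change was −41.4 ± 11.6 points in cohort 2 and 5.83 ± 4.11 in cohort 1, with the same adjusted p. Bcl3, in contrast, rose by 31.4 ± 3.12 points in cohort 2 and 29.5 ± 7.38 in cohort 1, and the difference of 0.17 ± 0.46 (SE, log-odds scale) had an adjusted p of 0.815. Control pups of cohort 2 changed by means of −56.8 points at Llgl1, −43.7 at chr8:126431995-126432028 and −27.0 at chr12:42929183-42929184. At Dapk1 they changed by 2.63 ± 14.7 points (SD, n = 4). Their mean there was 30.2% at P2, against 49.1% in the LBN pups of cohort 2. Man1c1, which fell in cohort 2, was called higher in LBN pups of cohort 1 (adjusted p = 0.0387). It changed there by 23.5 ± 21.8 points (SD, n = 5, adjusted p of the difference 0.0108). B4galt4 changed in the same pups by 16.2 ± 17.1 points (adjusted p of the difference 0.0135). Xylt2 changed by −16.1 ± 16.9 points (adjusted p of the difference 0.374).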

How the data were processed

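Genomic DNA of buccal swabs was analysed by RRBS. Per the labels and the study's methods, the authors trimmed reads with Trim Galore 0.4.3, checked them with FastQC, aligned them to rn6 with Bismark 0.16.3, and used methylKit on CpGs with more than 10 reads. CpGs were kept if they differed with age within a pup (false discovery rate 0.05) in at least 2 pups of a group, and those within 100 base pairs of each other were merged. The deposited values are percentages of methylated reads in the 3417 DMRs, before correction for cohort. This selection raises the share of DMRs that pass a test, and without read counts a shallow value weighs as much as a deep one.

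P2 and P10 were paired by pup, as the labels name the same animal. After removal of the group means, P2 and P10 of a pup correlated over DMRs at r = 0.382 (LBN2), −0.109 (LBN4), 0.0519 (LBN9) and −0.210 (LBN11). limma 3.58.1 in R 4.3.3 was fitted to log2((percent + 1)/(100 − percent + 1)) with Benjamini-Hochberg adjustment at 0.05 over all DMRs, after it was tested on simulated data. Group differences were fitted to the change of each pup. For means per pup, exact permutation tests were used, two-sided (Python 3.11.15, numpy 2.4.6, pandas 2.3.3, scipy 1.17.1, matplotlib 3.10.9).

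The group, lists and named DMRs were chosen with earlier results of these data known. Named were the 8 largest falls and rises past the adjusted p with 4 of 4 pups in 1 direction, the 3 DMRs of smallest p in each list, and the 4 of smallest p in each comparison of groups; other list members past the adjusted p and the promoter DMRs were added after their values were seen. Some DMRs that this rule names are not reported here. Genes came from the study's annotation (within 20 kb of a start, or in the gene). Alternatives were other scales, offsets, filters, centring, spread models, blocks and each pup left out.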

Additional observations from a re-analysis of the deposited data

Results flagged for a closer look

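Of 85 groups of values examined for a pup far from the others, 1 was found, where chance gives about 1 in 20: at the intronic Dnmt3a DMR, LBN4 rose by 27.4 points and the other LBN pups by 11.04 to 13.6.

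Differences between groups under the same contrast were found in 8 results. The mean change over all DMRs differed by −7.82 points, LBN pups of cohort 2 minus those of cohort 1, and 799 DMRs changed differently. The differences between the cohorts on the log-odds scale were −3.82 at Llgl1, −3.78 at chr8:126431995-126432028, −3.86 at Dapk1 and −3.28 at chr12:42929183-42929184. The change of LBN pups minus that of control pups of cohort 2 was 4.30 at chr15:40479196-40479197 and 3.39 at chr14:9158709-9158710, where the groups were apart at P2 already.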

How the results depend on the processing

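The 568 DMRs that changed in LBN pups of cohort 2 were 601 on percentage points, 428 on log2(P10/P2), 612 and 502 with offsets of 5 and 0.1, 572 with levels of 10 to 90% and 567 without chromosome X. They were 307 after centring, 529 with trend and robust settings, 318 with the spread of all 19 pups, 458 with that of 8 pups and 600 without the replicate block. A rule without a model (4 of 4 pups and at least 10 points) gave 1075. With a pup left out the count ran from 157 to 444. Fewer pups entered those fits, and the cause of the other differences was not tested.

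The 2 DMRs that differed between LBN and control pups became 78 on percentage points, 11 on log2(P10/P2), 12 with an offset of 5, and 1 after centring or with the spread of all 19 pups. They were 0 to 23 with a pup left out. The 799 DMRs that differed between the cohorts became 434 after centring, 298 with the spread of 19 pups, and 242 (without LBN4 of cohort 2) to 1463 (without LBN4 of cohort 1) with a pup left out. With the number that pups 2, 4 and 9 share between cohorts as a replicate block, 450 passed. Those pairs correlated at r = 0.168, 0.467 and −0.0362, so the numbers were treated as names.

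Of the 53 named DMRs past the adjusted p, 36 no longer passed without LBN2, 29 without LBN9, 27 without LBN4 and 6 without LBN11. On percentage points 17 no longer passed, with the spread of 19 pups 20, after centring 10, without the block 5 and with an offset of 5, 1. No direction reversed after centring. The other settings could not reverse a direction, because LBN2, LBN4, LBN9 and LBN11 all moved the same way at each of these DMRs. The mean change of −6.79 points ran from −7.52 to −5.80 with a pup left out. The unknown number of reads limits every value, since 16 values of 0 and 21 of 100 in the 8 samples could rest on few reads.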
